A study of Canis lupus familiaris with 18 samples.

Results

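The genes described here encode the enzymes of glycolysis and of the pentose phosphate pathway, together with the pyruvate dehydrogenase complex and its kinases, mitochondrial glycerol phosphate dehydrogenase, muscle-type glycogen synthase and liver-type glycogen phosphorylase. Of 35 genes listed, 32 were found among the 15115 genes that the platform annotation of a canine Affymetrix array gives by a single symbol, and the probe set of highest mean over 18 arrays stands for each gene. LDHB, RPIA and TALDO1 had no probe set with a single symbol and were not analysed. Of the 32 genes, 29 passed the filter on low signal (log2 of at least 4 in at least 4 arrays), and HK3, PFKFB2 and PFKFB4 lay under log2 4 in all 18 arrays, at 2.45 to 2.60, 2.08 to 2.17 and 2.56 to 3.14. The arrays held gonadal and subcutaneous fat of 9 beagles, intact females aged 4 years, all fed the same commercial diet and sampled after an overnight fast at 24 weeks. The control group was 4 dogs (1, 3, 4 and 9) given food to keep body weight at its baseline, and the ad libitum group was 5 dogs (2, 5, 6, 7 and 8), which the series text calls obese. Each dog gave 1 array per depot, so every replicate is a separate animal. All samples were whole tissue, in which fewer cells of a type and less RNA per cell cannot be told apart. The subcutaneous arrays had been part of an earlier submission and the gonadal ones are not so described, so depot and any batch of arrays cannot be told apart.

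Glycolysis splits glucose into pyruvate through hexokinase, phosphofructokinase and pyruvate kinase as its regulated steps, and the pentose phosphate pathway branches off at glucose 6-phosphate to give NADPH and ribose 5-phosphate. In adipocytes glycolysis supplies glycerol 3-phosphate for triglyceride, and pyruvate dehydrogenase and the NADPH-forming steps supply the acetyl-CoA and reducing power for fatty acid synthesis. Several steps exist as isozymes with different tissue patterns, such as PFKM in muscle, PFKL in liver and PFKP in platelets and many other tissues.

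All 8 adipocyte markers lay at or above log2 4 in all 18 arrays. The adipocyte score, the median over the markers of the difference from the median array, ran from -1.40 to -0.25 in subcutaneous control arrays, -1.64 to 0.44 in subcutaneous ad libitum arrays, -1.24 to 0.54 in gonadal control arrays and -1.38 to 0.44 in gonadal ad libitum arrays. Skeletal muscle transcripts stood out in 3 arrays, with scores of 7.58 and 6.27 in the subcutaneous arrays of control dogs 3 and 4 and 6.57 in the gonadal array of dog 2, and 14 to 16 of 16 muscle markers at or above log2 4. The subcutaneous array of dog 7 had a muscle score of 1.17, with 11 of 16 muscle markers at or above log2 4. The others had 2 to 5 muscle markers at or above log2 4. Ciliated or oviduct epithelial transcripts stood out in the subcutaneous array of dog 4 (score 3.07) and the gonadal array of dog 6 (score 5.22), with 9 of 12 markers at or above log2 4 in each. The gap between the 3' and 5' probe sets of actin, larger where RNA is less intact, averaged 4.75 ± 1.02 (SD, n = 4) in subcutaneous control and 3.49 ± 0.77 (n = 5) in subcutaneous ad libitum arrays (exact permutation test over 126 regroupings, two-sided p = 0.0952). In gonadal fat it averaged 2.91 ± 0.91 and 3.31 ± 0.91 (exact permutation p = 0.540). The same gap for GAPDH was 2.52 ± 0.28 in controls and 2.51 ± 0.16 in ad libitum dogs for subcutaneous fat (exact permutation p = 0.952) and 2.32 ± 0.40 and 2.40 ± 0.21 in gonadal ones (p = 0.698, exact).

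**Figure D1:**
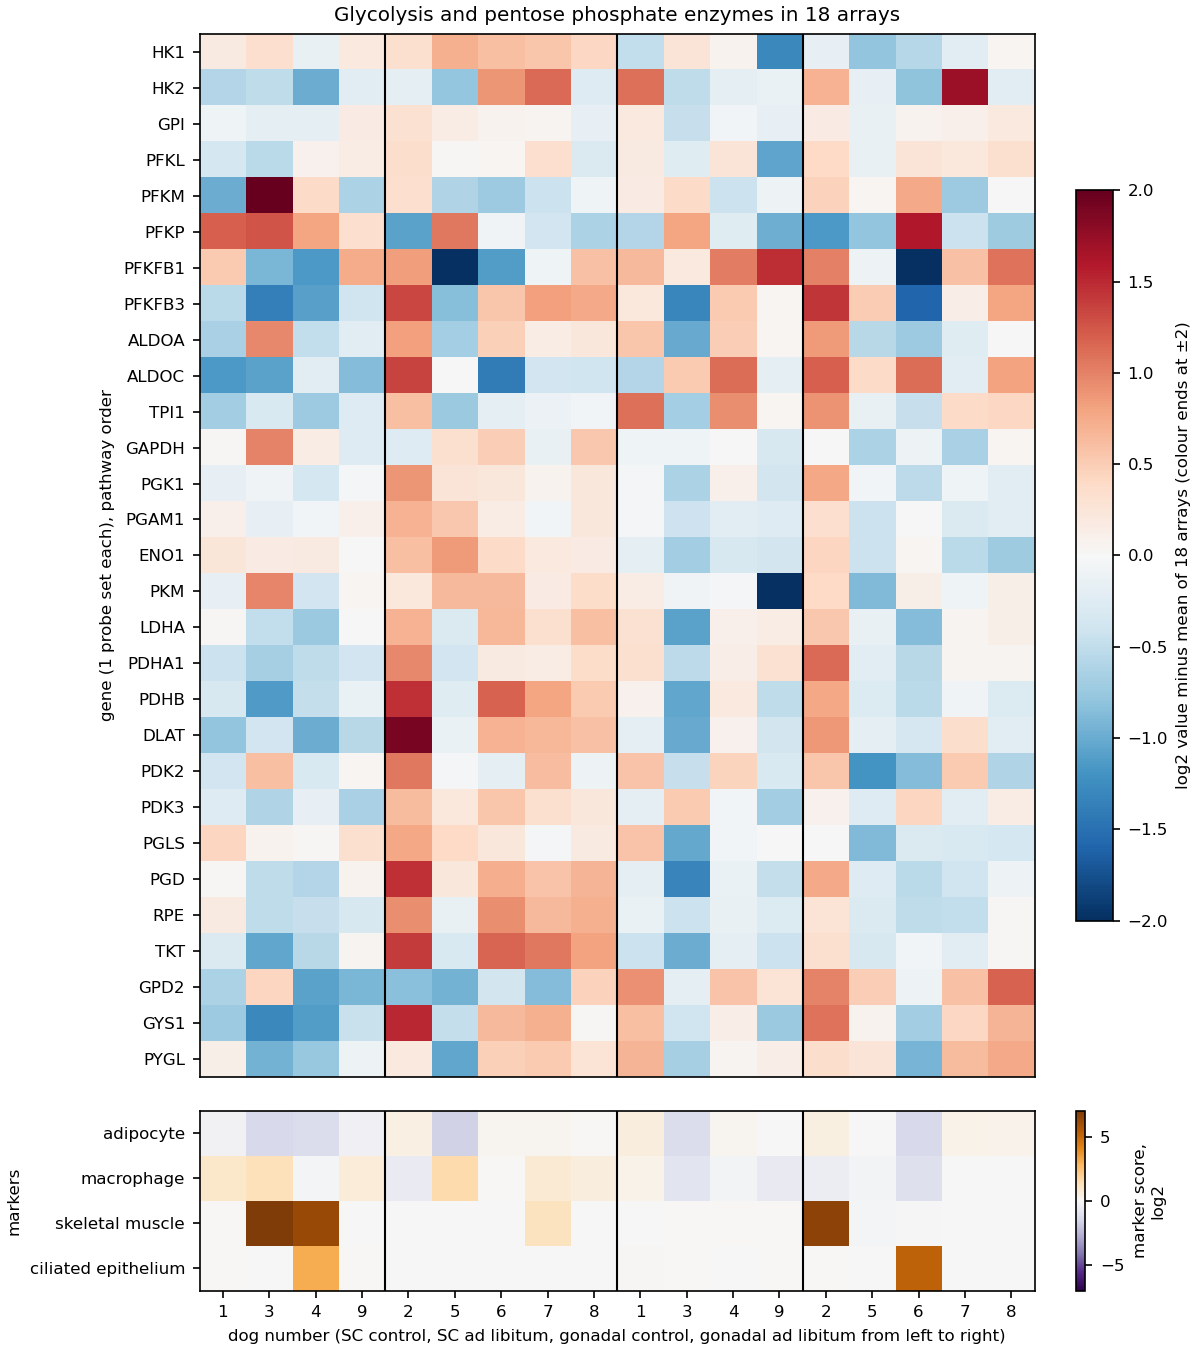
Log2 value of each of the 29 genes that passed the filter minus its mean over 18 arrays (upper panel, colour, in pathway order), with 4 marker scores in log2 (lower panel). Columns are arrays, grouped by depot and feeding and numbered by dog. TKT and RPE have their 4 highest values in the subcutaneous arrays of ad libitum dogs 2, 6, 7 and 8, and the muscle score marks the subcutaneous arrays of dogs 3 and 4 and the gonadal array of dog 2.

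In subcutaneous fat, ad libitum feeding went with higher signal for 3 of the 29 genes, TKT and RPE of the non-oxidative pentose phosphate pathway and DLAT of the pyruvate dehydrogenase complex, and with lower signal for none (limma, Benjamini-Hochberg adjusted p under 0.05). That is 10.3% of the genes higher, where 1.96% of all 8652 genes tested were called higher and 0.347% lower, or 2.31% in either direction. At an unadjusted p under 0.05 there were 11 of 29, or 37.9%, against 23.7% of all genes. The difference was positive for 25 of 29 genes, where 50.1% of all genes were positive, and its median was 0.40 on the log2 scale against 0.0005 over all genes. By role, 2 of 4 pentose phosphate genes rose and all 4 differences were positive. For pyruvate dehydrogenase and its kinases 1 of 5 rose and all 5 were positive. None passed among the 3 genes of hexose phosphorylation and isomerisation, 5 of the phosphofructokinase step, 9 from aldolase to lactate, and 3 of glycerol phosphate and glycogen.

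TKT encodes transketolase, which moves carbon units between pentose and glycolytic sugar phosphates. It measured 12.23, 11.50, 11.98 and 12.58 (log2) in subcutaneous fat of control dogs 1, 3, 4 and 9 and 13.93, 12.23, 13.70, 13.58 and 13.33 in ad libitum dogs 2, 5, 6, 7 and 8. Of the ad libitum dogs 4 lay above every control and dog 5 lay within the control range. The difference was 1.28 ± 0.30 (log2 ± SE), from 12.07 ± 0.45 to 13.36 ± 0.67 (SD), with a limma adjusted p of 0.0383.

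RPE, ribulose-phosphate 3-epimerase, measured 9.07, 8.39, 8.42 and 8.56 in control dogs 1, 3, 4 and 9 and 9.81, 8.75, 9.82, 9.54 and 9.60 in ad libitum dogs 2, 5, 6, 7 and 8. Dog 5 again lay inside the control range, under control dog 1, and the other 4 ad libitum dogs lay above all controls. RPE rose by 0.89 ± 0.23, or 1.86-fold (limma adjusted p = 0.0488). Its other probe sets in the test gave 1.21 (adjusted p = 0.0872) and 0.89 (adjusted p = 0.0765).

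PGD, 6-phosphogluconate dehydrogenase, is an NADPH-forming enzyme of the pathway, and PGLS, 6-phosphogluconolactonase, acts just before it. PGD measured 12.06, 11.52, 11.44 and 12.10 in the controls and 13.49, 12.25, 12.75, 12.60 and 12.71 in ad libitum dogs 2, 5, 6, 7 and 8. The groups did not overlap, and the difference of 0.98 ± 0.30 missed the threshold (limma adjusted p = 0.0851). PGLS ran from 9.02 to 9.42 in the controls and from 8.95 to 9.77 in the ad libitum dogs, and the ranges overlapped.

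DLAT encodes the acetyltransferase core of the pyruvate dehydrogenase complex. It measured 5.66, 6.07, 5.46 and 5.90 in controls 1, 3, 4 and 9 and 8.35, 6.32, 7.15, 7.13 and 7.04 in ad libitum dogs 2, 5, 6, 7 and 8. Every ad libitum array lay above every control array, with dog 2 highest and dog 5 lowest of its group. DLAT rose by 1.43 ± 0.34, or 2.69-fold, from 5.77 ± 0.27 to 7.20 ± 0.73 (limma adjusted p = 0.0428). A second DLAT probe set gave 0.61 (adjusted p = 0.287).

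The E1 subunits of the same complex and its kinases, which inactivate it by phosphorylation, did not pass. PDHB, the E1 beta subunit, measured 10.66, 9.85, 10.51 and 10.85 in the controls and 12.45, 10.74, 12.16, 11.78 and 11.50 in ad libitum dogs 2, 5, 6, 7 and 8. Only dog 5 lay within the control range, and the difference was 1.26 ± 0.35 (limma adjusted p = 0.0658). PDHA1, the E1 alpha subunit, ran from 10.92 to 11.19 in the controls and from 11.19 to 12.55 in the ad libitum dogs with no overlap at the third decimal, a difference of 0.75 ± 0.30 (adjusted p = 0.153). PDK3, a kinase of the complex, measured 7.34, 6.99, 7.43 and 6.95 in the controls and 8.22, 7.80, 8.14, 7.91 and 7.82 in the ad libitum dogs, also with no overlap. Its difference was 0.80 ± 0.21 (adjusted p = 0.0567), and the kinase gene PDK2 overlapped between the groups, at 6.38 to 7.36 and 6.58 to 7.83.

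**Figure D2:**
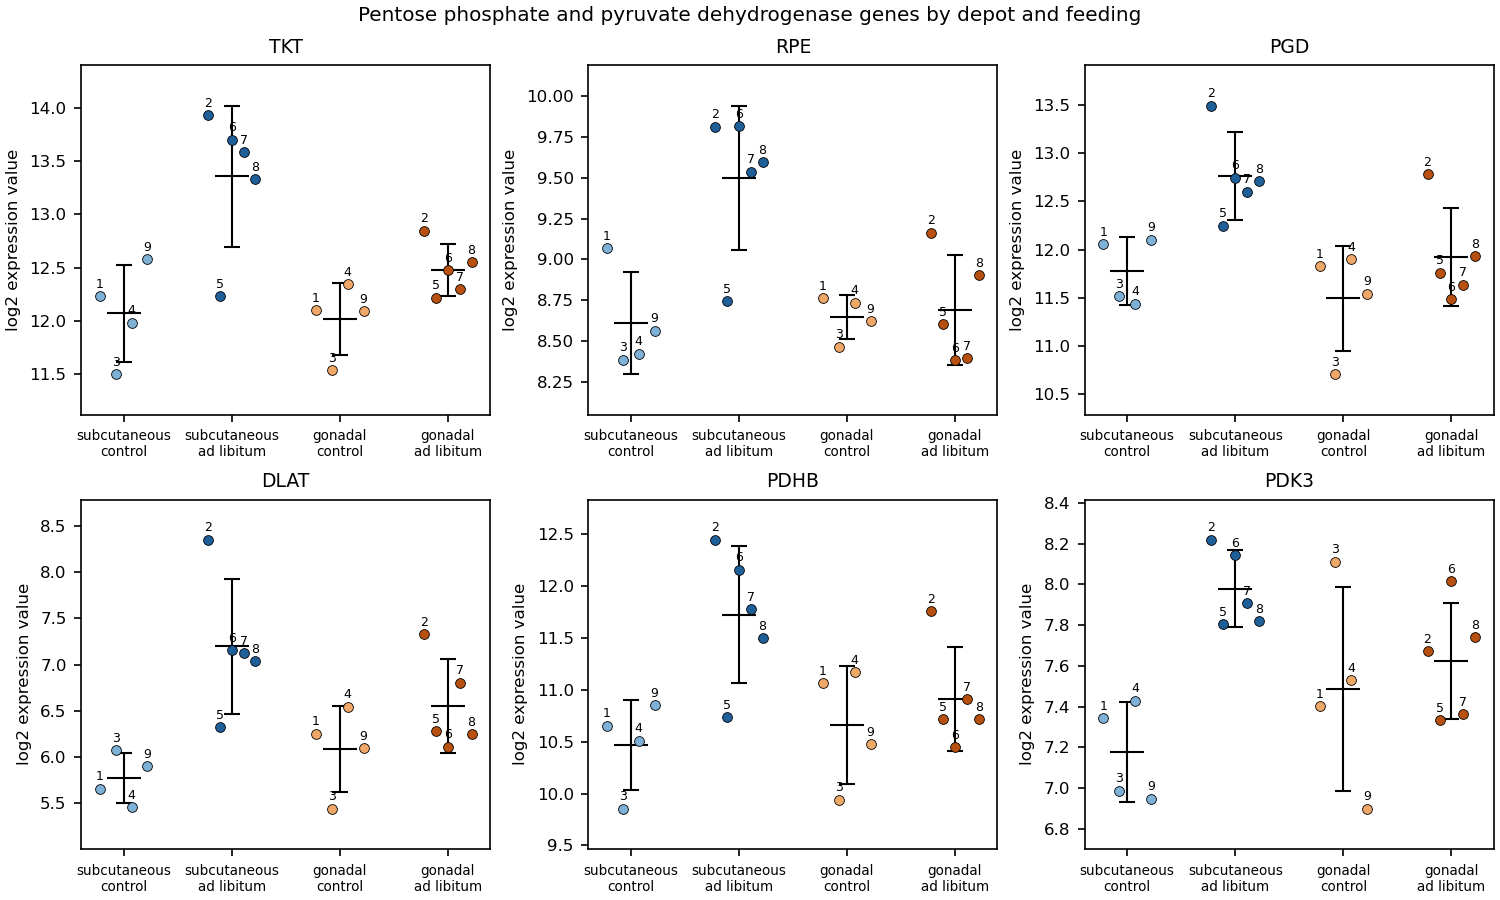
Log2 expression value of 6 genes in each array (points, numbered by dog) by depot and feeding group. Bars show the group mean and SD (n = 4 control, n = 5 ad libitum). In subcutaneous fat DLAT, PGD and PDK3 of the ad libitum dogs lay above all controls, and dog 5 lay within the control range for TKT, RPE and PDHB.

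Without overlap between the subcutaneous groups were 5 of the 29 genes, DLAT, PDK3, PGD, PDHA1 and PGK1, all higher in the ad libitum dogs. Over all genes 6.13% were higher without overlap and 4.33% were lower. PGK1, phosphoglycerate kinase, ran from 11.50 to 11.82 in the controls and from 11.92 to 12.74 in the ad libitum dogs, a difference of 0.48 ± 0.23 (limma adjusted p = 0.219).

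The genes of the upper pathway were mixed in direction. HK1, the broadly expressed hexokinase, ran from 7.06 to 7.54 in subcutaneous control arrays and from 7.53 to 7.92 in ad libitum arrays. HK2, the insulin-regulated hexokinase of muscle and fat, was low, at 2.95 to 3.73 and 3.17 to 5.07, and its control mean of 3.37 lay under the floor of log2 4, so no fold is given. Dogs 6 and 7 held the highest subcutaneous HK2 values, 4.82 and 5.07. GPI, glucose-6-phosphate isomerase, had the narrowest range of the 29 genes over the 18 arrays, from 12.13 to 12.91.

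PFKP, the platelet-type phosphofructokinase, measured 8.37, 8.43, 7.97 and 7.52 in subcutaneous controls 1, 3, 4 and 9 and 6.11, 8.23, 7.11, 6.79 and 6.55 in ad libitum dogs 2, 5, 6, 7 and 8. All ad libitum dogs but dog 5 lay below the controls. The difference of -1.11 ± 0.52 did not pass (limma adjusted p = 0.203). PFKL ran from 8.79 to 9.47 in the controls and from 9.03 to 9.67 in the ad libitum dogs, with overlap. Its difference was 0.26, and its other probe sets gave 0.54, 0.69 and 0.23 (limma adjusted p = 0.183, 0.140 and 0.3775).

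PFKFB3 encodes the bifunctional enzyme that makes fructose 2,6-bisphosphate, an activator of phosphofructokinase, and PFKFB1 its liver form. PFKFB3 measured 10.49, 9.66, 9.94 and 10.62 in the controls and 12.35, 10.18, 11.58, 11.84 and 11.78 in ad libitum dogs 2, 5, 6, 7 and 8. Dog 5 lay within the control range and the other 4 ad libitum dogs lay above it, with a difference of 1.37 ± 0.54 (limma adjusted p = 0.147). PFKFB1 had the widest range of the 29 genes, from 6.33 in the subcutaneous array of dog 5 to 10.58 in the gonadal array of dog 9, and its subcutaneous groups overlapped.

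In the lower pathway LDHA, the A subunit of lactate dehydrogenase, measured 14.02, 13.51, 13.26 and 14.01 in subcutaneous controls and 14.69, 13.70, 14.66, 14.32 and 14.60 in ad libitum dogs 2, 5, 6, 7 and 8. Dog 5 lay within the control range, and the difference was 0.70 ± 0.32 (limma adjusted p = 0.194). TPI1, triosephosphate isomerase, ENO1, the broadly expressed enolase, PGAM1, phosphoglycerate mutase, and PKM, pyruvate kinase, overlapped between the groups, as did ALDOC, the brain-type aldolase. GYS1, glycogen synthase, measured 5.15, 4.60, 4.76 and 5.44 in the controls and 7.39, 5.40, 6.53, 6.60 and 5.90 in the ad libitum dogs. All but dog 5 lay above the controls, and the difference was 1.38 ± 0.40 (adjusted p = 0.0732). PYGL, liver-type glycogen phosphorylase, overlapped, with dog 5 lowest at 11.73.

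The lowest adipocyte scores of the 18 arrays, from -1.64 to -1.24, were in the subcutaneous arrays of dogs 3, 4 and 5 and the gonadal arrays of dogs 3 and 6. The same 5 arrays held the 5 lowest values of PFKFB3, LDHA and PYGL, which is 3 of the 29 genes beside 2.15% of all genes. PFKFB3 there measured 9.66, 9.94 and 10.18 in the subcutaneous arrays and 9.72 and 9.43 in the gonadal ones. For PFKP and PFKM the order was turned, with 4 of these arrays among the 5 highest of each. The share of all genes at this looser count of 4 was not taken, so it is not read as unusual. None of the 29 had these 5 arrays as its 5 highest, beside 0.647% of all genes. Macrophage markers had a score of 1.54 in the subcutaneous array of dog 5, with -0.59 as the lowest of its group and -0.16 to 1.28 in the controls. The fibroblast and progenitor score was 0.87, 1.59, 1.07 and 0.64 in subcutaneous controls 1, 3, 4 and 9 and -0.49, 1.66, 0.15, 0.10 and 0.12 in ad libitum dogs 2, 5, 6, 7 and 8. It was thus lower in 4 of the ad libitum dogs than in every control and highest in dog 5, the dog that lay within the control range for TKT, RPE and PDHB. The part of the adipocyte, macrophage and fibroblast scores in the feeding differences was not tested.

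The 3 subcutaneous calls were lost in most fits with fewer arrays. The loss of arrays and the muscle content of those left out cannot be told apart here. After removal of the 4 arrays with transcripts of muscle or ciliated cells, which leaves 2 subcutaneous controls, no gene passed, and the differences were 0.95 for TKT (limma adjusted p = 0.276), 0.69 for RPE (adjusted p = 0.280) and 1.42 for DLAT (adjusted p = 0.186). That fit kept the subcutaneous array of ad libitum dog 7, with 11 of 16 muscle markers at or above log2 4. With the actin signal as a covariate none passed either, at 1.22, 0.72 and 1.00. The share of all probe sets called was 0.0233% without the 4 arrays and 0.00465% with the covariate. Leaving out dog 5 gave 8 genes, with GYS1, PDHB, PDK3, PFKFB3 and PGD beside the 3, while the share of all probe sets called went from 2.35% to 12.6%. Leaving out any other dog, 1, 2, 3, 4, 6, 7, 8 or 9, gave 0, with 2.65% of all probe sets called without dog 6 and under 1% without each of the rest.

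Some of these genes were highest in the subcutaneous array of dog 3, which had the highest muscle score. PFKM, the muscle-type phosphofructokinase, measured 7.34, 10.51, 8.71 and 7.70 in subcutaneous controls 1, 3, 4 and 9 and 7.59 to 8.66 in the ad libitum dogs. Dog 3 was the highest of all 18 arrays, as it also was for ALDOA, the muscle and red cell aldolase (14.79), for GAPDH, glyceraldehyde-3-phosphate dehydrogenase (14.97), and for PKM (7.61). The feeding difference of PFKM was -0.54 ± 0.49 (limma adjusted p = 0.512) over all arrays and 0.50 without the 4 arrays named above, and that of GAPDH was -0.04 and 0.30. The other arrays with muscle transcripts did not stand out alike, with ALDOA at 13.34 and GAPDH at 14.13 in the subcutaneous array of dog 4, and at 14.68 and 13.96 in the gonadal array of dog 2. The part of muscle transcripts in these values was not tested. ALDOA differed by 0.29 ± 0.41 (adjusted p = 0.694).

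Muscle isoforms from outside the 35 genes marked the same arrays. ENO3, the muscle enolase, measured 12.45 and 9.48 in the subcutaneous arrays of dogs 3 and 4 and 9.94 in the gonadal array of dog 2, and 5.19 to 6.72 in the other 15. PYGM, the muscle glycogen phosphorylase, measured 10.47, 7.50 and 8.20 in those arrays and at most 3.38 elsewhere. PGAM2, the muscle phosphoglycerate mutase, measured 8.33, 5.33 and 6.06, and at most 2.64 elsewhere.

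**Figure D3:**
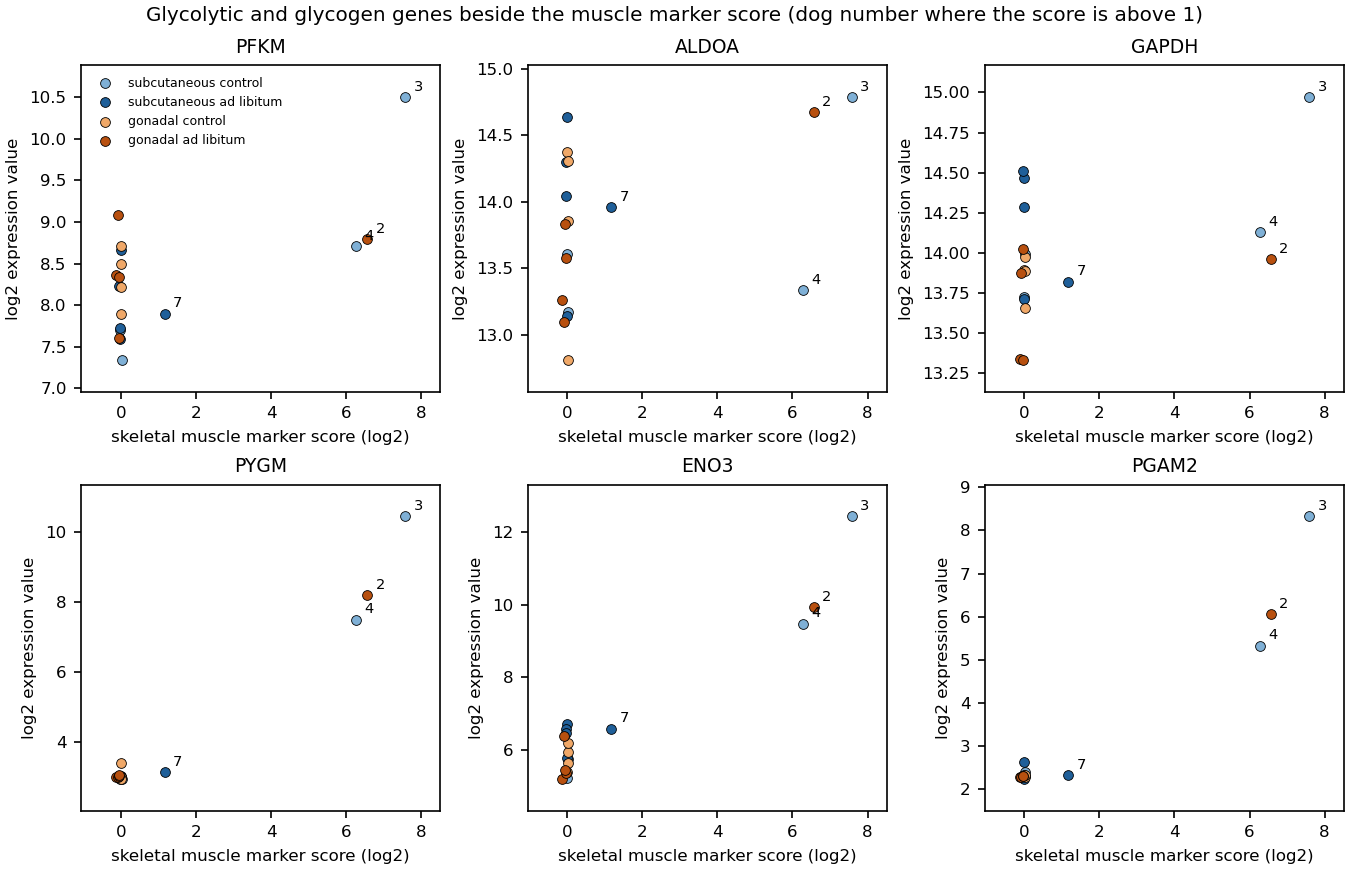
Log2 expression value (vertical axis) against the skeletal muscle marker score in log2 (horizontal axis) for 3 of the genes (PFKM, ALDOA, GAPDH) and 3 muscle isoforms (PYGM, ENO3, PGAM2). Points are arrays coloured by group, and those with a score above 1 carry the dog number. The subcutaneous arrays of dogs 3 and 4 and the gonadal array of dog 2 stand apart for PYGM, ENO3 and PGAM2, and dog 3 is the highest array for PFKM, ALDOA and GAPDH.

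In gonadal fat none of the 29 genes passed for feeding, and 0.0% of all genes did (limma, smallest adjusted p = 0.9999, also for these genes). At an unadjusted p under 0.05 there were 0 of 29 and 208 of 8652 genes, or 2.4%. The difference was positive for 22 of 29 genes beside 50.9% of all genes, with a median of 0.16 against 0.0046. No gene of the 29 separated the gonadal groups, beside 0.266% of all genes higher and 0.532% lower without overlap.

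The smallest p values in gonadal fat were those of PFKL, TKT, GPI, PGD and DLAT. TKT measured 12.10, 11.54, 12.34 and 12.09 in gonadal controls 1, 3, 4 and 9 and 12.85, 12.22, 12.48, 12.29 and 12.55 in ad libitum dogs 2, 5, 6, 7 and 8. Ad libitum dogs 2, 6 and 8 lay above all controls, and dogs 5 and 7 below control dog 4. The difference was 0.46, with a 95% interval from -0.17 to 1.09. PFKL, the liver-type phosphofructokinase, differed by 0.42 (-0.09 to 0.93), with control dog 9 lowest at 8.28. Its other probe sets gave 0.69, 0.37 and 0.32 (limma adjusted p = 0.9999 each), the first with an unadjusted p of 0.0106. GPI differed by 0.20 ± 0.14, PGD by 0.42 ± 0.30 and DLAT by 0.47 ± 0.34 (limma adjusted p = 0.9999 for each). RPE measured 8.46 to 8.76 in gonadal controls and 8.38 to 9.16 in ad libitum dogs, with a mean of 8.65 and 8.69.

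The test of the difference between the depots' feeding responses called 0 of 29 genes and 0.0% of all genes (limma, smallest adjusted p = 0.309 over all genes). At an unadjusted p under 0.05 there were 2 of 29, RPE and PDK3, or 6.9%, against 6.32% of all genes. The gonadal response minus the subcutaneous one was -0.85 ± 0.32 for RPE, -0.66 ± 0.30 for PDK3, -1.01 ± 0.50 for PDHB, -0.96 ± 0.48 for DLAT and -0.82 ± 0.42 for TKT, with an adjusted p of 0.748 for each. It was negative for 23 of 29 genes, where 48.8% of all genes were positive. The subcutaneous calls for TKT, RPE and DLAT were thus not shown to differ from the gonadal values.

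**Figure D4:**
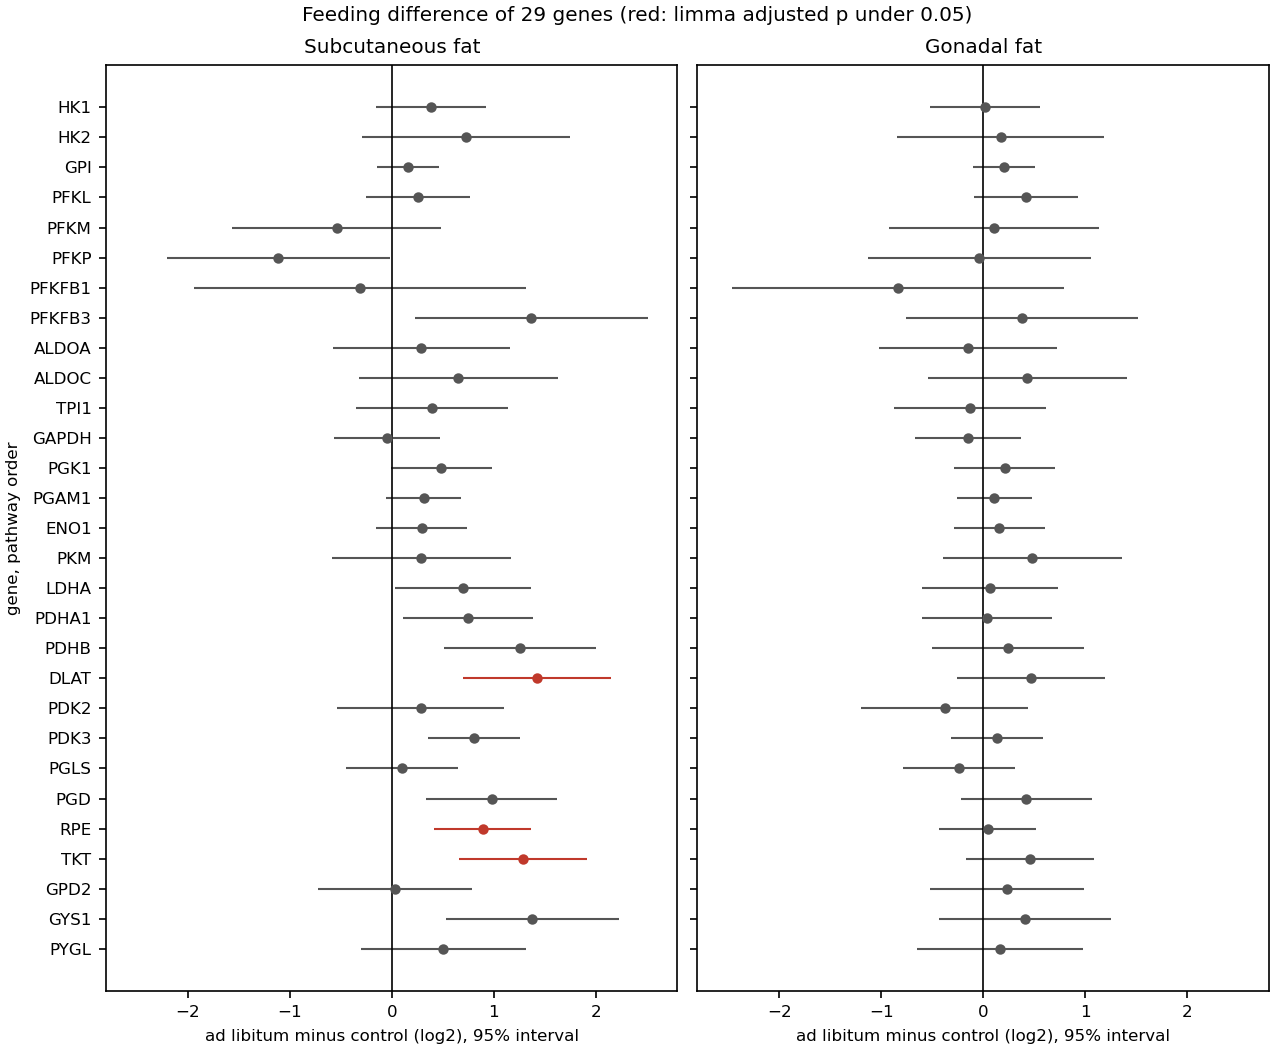
Ad libitum minus control difference in log2 (points) with its 95% interval (bars) for the 29 genes in pathway order, in subcutaneous fat (left) and gonadal fat (right). Red marks the 3 genes with a limma adjusted p under 0.05, DLAT, RPE and TKT, all in subcutaneous fat.

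Between the depots, in ad libitum dogs, 3 of the 29 genes were lower in gonadal fat (limma, adjusted p under 0.05), RPE, HK1 and ENO1, and none was higher. That is 10.3% lower beside 4.75% of all genes, where 2.7% were higher and 7.45% were called in either direction. The gonadal minus subcutaneous difference was negative for 21 of 29 genes, where 48.4% of all genes were positive. This comparison uses the same 5 subcutaneous ad libitum arrays as the subcutaneous feeding comparison, so the values of TKT and RPE are not independent between them.

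RPE measured 9.16, 8.60, 8.38, 8.40 and 8.90 in gonadal fat of dogs 2, 5, 6, 7 and 8, below the subcutaneous array of the same dog in 5 of 5. RPE was lower, with a difference of -0.81 ± 0.21 (limma adjusted p = 0.0300). Its other probe sets in the test gave -0.782 (adjusted p = 0.195) and -0.675 (adjusted p = 0.111). In control dogs the RPE difference was 0.04 ± 0.24, with 3 of 4 dogs higher in gonadal fat.

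HK1 measured 7.53, 7.92, 7.80, 7.75 and 7.62 in subcutaneous and 7.04, 6.41, 6.63, 6.98 and 7.23 in gonadal fat of dogs 2, 5, 6, 7 and 8. The depots did not overlap, which held for 5.44% of all genes in that direction and 4.02% in the other. HK1 differed by -0.87 ± 0.24 (limma adjusted p = 0.0394), and its second probe set gave -0.32 (adjusted p = 0.271). HK1 was the only one of the 29 without overlap here.

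ENO1 measured 13.75, 14.00, 13.53, 13.35 and 13.31 in subcutaneous and 13.58, 12.72, 13.18, 12.62 and 12.44 in gonadal fat of the same dogs. It was lower in 5 of 5 dogs, and gonadal dog 2 overlapped the subcutaneous range. ENO1 differed by -0.68 ± 0.20 (limma adjusted p = 0.0484), and its other probe sets gave -0.80 (adjusted p = 0.0543) and -0.82 (adjusted p = 0.0698).

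GPD2, the mitochondrial glycerol phosphate dehydrogenase, ran the other way. It measured 6.27, 6.14, 6.73, 6.24 and 7.56 in subcutaneous and 8.09, 7.58, 7.00, 7.68 and 8.28 in gonadal fat of dogs 2, 5, 6, 7 and 8. It was higher in 5 of 5 dogs by 1.14 ± 0.34 and just missed the threshold (limma adjusted p = 0.0509). TKT differed by -0.88 ± 0.28 (adjusted p = 0.0679), PGD by -0.84 ± 0.29 (adjusted p = 0.0853) and PGLS by -0.68 ± 0.24 (adjusted p = 0.104), each lower in 5 of 5 dogs. With RPE, all 4 pentose phosphate genes were lower in gonadal fat of every ad libitum dog.

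In all 5 ad libitum dogs 12 of the 29 genes were lower in gonadal fat, or 41.4%, against 16.3% of all genes. These were DLAT, ENO1, HK1, PDHB, PDK2, PDK3, PGAM1, PGD, PGK1, PGLS, RPE and TKT. GPD2 alone of the 29 was higher in all 5, or 3.45%, against 12.7% of all genes.

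With the dog as a random block, which uses that both arrays come from the same animal, 6 genes passed in ad libitum dogs, with GPD2, PGD and TKT beside the 3, and 11.6% of all probe sets against 7.19% without the block. With the dog as a fixed block 4 passed, ENO1, PGD, RPE and TKT, with 8.52% of all probe sets, and HK1 had an adjusted p of 0.0634. Leaving out dog 7 or 8 gave 0 calls, with 2.72% and 2.31% of all probe sets called. Without dog 6 GPD2 alone passed (5.5% of all probe sets), so none of RPE, HK1 and ENO1 did. Without dog 1 RPE alone passed (6.23%). Without dog 3 GPD2, HK1, PGLS and RPE passed (7.53%), and without dog 5 RPE and TKT (3.91%). ENO1 and RPE passed without dog 2 (5.42%), and HK1 and RPE without dog 4 or 9 (5.85% and 6.54%). Dogs 1, 3, 4 and 9 are controls with no array in this comparison. Leaving them out kept the differences and changed calls only through the spread estimated over all groups. Without the 4 arrays with transcripts of muscle or ciliated cells ENO1, GPD2, PGAM1 and RPE passed, with 7.54% of all probe sets. HK1 stood there at -0.85 (limma adjusted p = 0.105).

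In control dogs 0 of 29 genes passed between the depots, where 2.95% of all genes did (limma), 1.14% higher and 1.8% lower in gonadal fat. The difference was positive for 16 of 29 beside 51.5% of all genes, and at an unadjusted p under 0.05 there were 4 of 29, or 13.8%, against 19.6%. ENO1 measured 13.39, 13.31, 13.33 and 13.14 in subcutaneous and 12.95, 12.45, 12.83 and 12.78 in gonadal fat of dogs 1, 3, 4 and 9. The depots did not overlap, which 8.14% of all genes showed in that direction and 4.96% in the other, and the difference was -0.54 ± 0.22 (adjusted p = 0.183).

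GPD2 measured 6.47, 7.53, 6.03 and 6.18 in subcutaneous and 8.01, 6.90, 7.67 and 7.38 in gonadal fat of those control dogs. It was higher in 3 of 4, with dog 3 turned, and differed by 0.94 ± 0.38 (limma adjusted p = 0.175). TPI1 differed by 0.84 ± 0.37 (adjusted p = 0.213), ALDOC by 1.04 ± 0.49 (adjusted p = 0.241) and PFKP by -1.15 ± 0.54 (adjusted p = 0.245). With the actin signal as a covariate GPD2 stood at 0.10, TPI1 at 0.09 and PFKP at -0.42. TKT differed by -0.05 ± 0.31 in control dogs. In all 4 control dogs ALDOC, HK2, PDHA1, PFKFB1, PFKFB3 and PYGL were higher in gonadal fat, 20.7% of the 29 beside 14.6% of all genes. HK2 counts there by 0.0012 in dog 3 and 0.08 in dog 9. Its subcutaneous control values of 2.95 to 3.73 all lay under log2 4, so its direction is not read. ENO1, GAPDH, PFKP and PGAM1 were lower in all 4, 13.8% beside 14.9%.

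Over both feeding groups ENO1 and PGAM1 were lower in gonadal fat in 9 of 9 dogs, which is 2 of 29 genes or 6.9%, against 5.51% of all genes. None was higher in all 9, against 3.7% of all genes. PGAM1 measured 12.52, 13.11, 12.25, 12.37, 12.96, 12.56, 12.36, 12.65 and 12.52 in subcutaneous fat of dogs 1 to 9. In gonadal fat it measured 11.99 to 12.76, lowest in dog 5 and highest in dog 2. The gap was widest in dog 5, whose subcutaneous ENO1 value was also the highest of all 18 arrays. GPD2, ALDOC, HK2, PFKFB1 and PYGL were higher in gonadal fat in 8 of 9 dogs, and HK1, GAPDH, PGD, PGLS and PFKP were lower in 8 of 9. The share of all genes at 8 of 9 dogs was not counted, so these are not read as a trait of the pathway. HK2 among them averaged 3.94 over 18 arrays, under the floor of log2 4. Mesothelial markers ran from -2.64 to 0.63 (score) in subcutaneous and from -0.35 to 2.69 in gonadal arrays, the adipocyte score was higher in gonadal fat in 8 of 9 dogs, and the macrophage score was lower in 8 of 9. The fibroblast and progenitor score was lower in gonadal fat in 9 of 9 dogs, at -1.01 to 0.23 there and -0.49 to 1.66 in subcutaneous fat. The part of these scores in the depot differences was not tested.

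**Figure D5:**
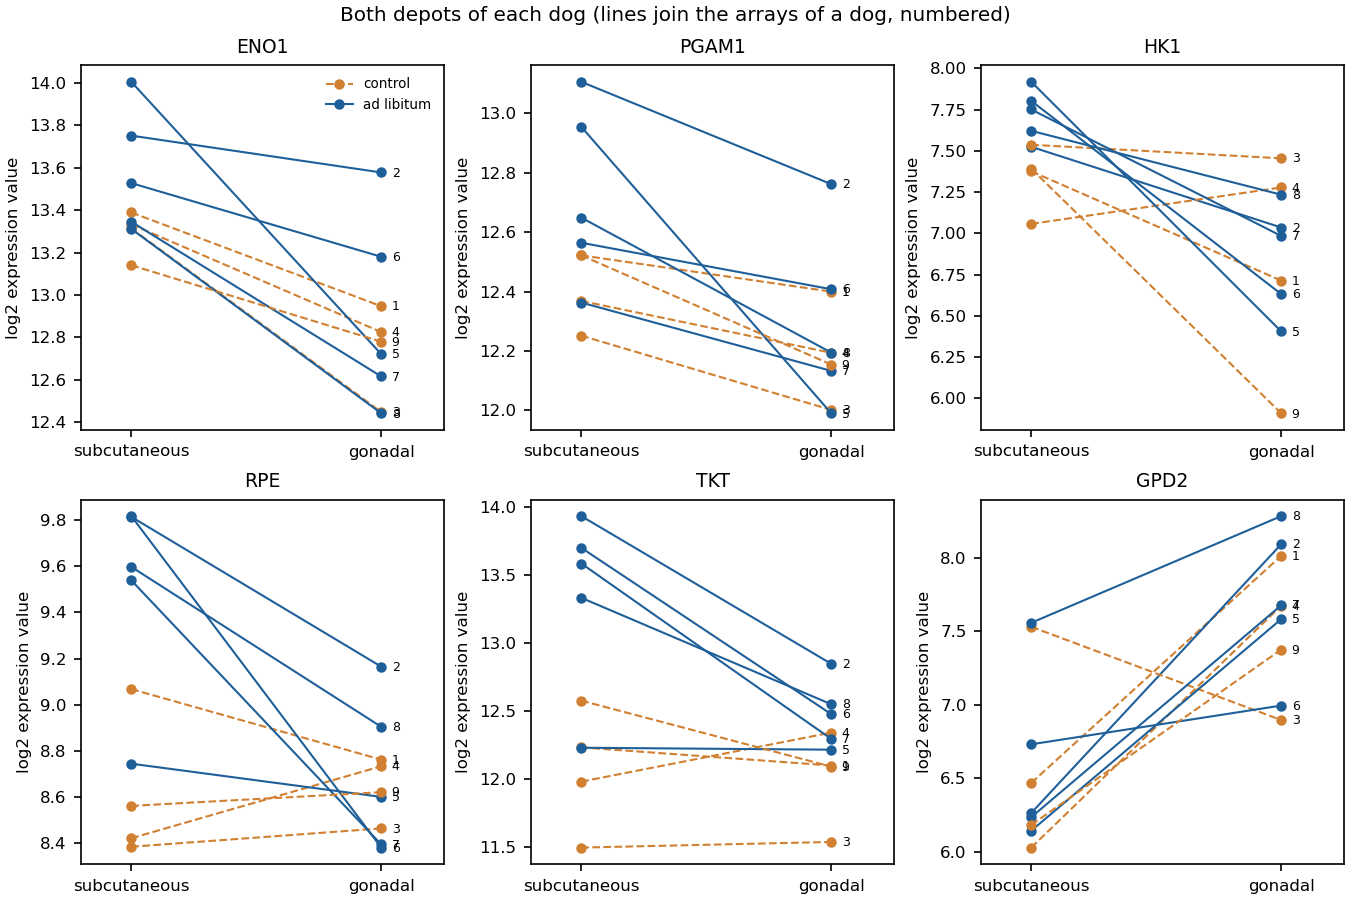
Log2 expression value of 6 genes in the subcutaneous and gonadal array of each dog. Lines join the arrays of a dog, dashed for the 4 control and solid for the 5 ad libitum dogs. ENO1 and PGAM1 are lower in gonadal fat in 9 of 9 dogs, and GPD2 is higher in 8 of 9, with dog 3 turned.

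Other genes around the pathway were taken from 6 fixed lists. For feeding in subcutaneous fat none passed (limma) of 6 glucose and lactate transport genes and 6 other glycolytic and gluconeogenic isoforms. Nor did any of 9 pyruvate entry genes, 6 pentose phosphate and ribose genes, 14 glycogen and glycerol phosphate genes and 9 regulators. The closest were PDK1, a further pyruvate dehydrogenase kinase, MPC2, a subunit of the mitochondrial pyruvate carrier, and the nuclear receptor ESRRA. PDK1 measured 11.31, 10.73, 10.86 and 11.13 in the controls and 11.96, 11.38, 12.02, 12.21 and 12.09 in the ad libitum dogs. Its groups did not overlap, with a difference of 0.92 ± 0.24 (adjusted p = 0.0562). MPC2 differed by 1.12 ± 0.31 (adjusted p = 0.0636). ESRRA reached log2 4 in only 4 of 18 arrays, the subcutaneous ones of dogs 2, 6 and 7 and the gonadal one of dog 2, so it passed the filter mainly through the group where it is high and its p is not read. Of the 9 pyruvate entry genes 8 had a positive difference, with a median of 0.92, where 50.1% of all genes were positive. The 6 other glycolytic and gluconeogenic isoforms ran the other way, with 0 positive and a median of -0.48. They were ENO2, ENO3, BPGM, FBP1, FBP2 and TIGAR, so this list does not describe glycolysis alone. The muscle enolase ENO3 was high in the subcutaneous control arrays with muscle transcripts, and their part here was not tested. Positive differences were found for 3 of 6 transport genes and 4 of 6 pentose phosphate and ribose genes. The same held for 7 of 14 glycogen and glycerol phosphate genes and 6 of 9 regulators.

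In gonadal fat none of these genes passed for feeding, and PHKA2, SREBF1 and SLC2A8 had the smallest p values, at -1.01 ± 0.36, 1.03 ± 0.54 and -0.36 ± 0.20 (limma adjusted p = 0.9999 each). Between depots of ad libitum dogs 3 of 50 passed, or 6.0%, where 7.45% of all genes did. GYG1, glycogenin, which primes glycogen, measured 10.02, 10.62, 10.43, 10.40 and 10.30 in subcutaneous and 11.31, 10.93, 10.93, 11.15 and 10.99 in gonadal fat of dogs 2, 5, 6, 7 and 8. It rose by 0.71 ± 0.16 (adjusted p = 0.0163), with no overlap. PRPS2, which makes phosphoribosyl pyrophosphate from ribose 5-phosphate, was higher by 1.06 ± 0.28 (adjusted p = 0.0300), and PHKG2, a phosphorylase kinase subunit, was lower at -0.58 ± 0.14 (adjusted p = 0.0174), both without overlap.

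In control dogs none of these genes passed between depots. PRPS2 differed by 1.09 ± 0.31 (limma adjusted p = 0.0646) and was higher in 4 of 4 dogs. With the dog as a random block PRPS2 and UGP2 passed (adjusted p = 0.0325 and 0.0480), and with a fixed block neither did (0.0645 and 0.0851). UGP2, which makes UDP-glucose, differed by -0.62 ± 0.19 (adjusted p = 0.0918), and the glucose transporter gene SLC2A3 by -2.11 ± 0.68 (adjusted p = 0.1002), both lower in 4 of 4 dogs. None passed for the difference between the depots' feeding responses, where DERA, PDK1 and MPC2 had the smallest p values, at -0.55 ± 0.22, -0.78 ± 0.34 and -0.97 ± 0.44 (adjusted p = 0.748 each).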

How the data were processed

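The deposited table held 1 column of expression values per array for 43035 probe sets, read here as log2. The authors made the deposited values with GCRMA, per the submitters' processing notes. Its version and the base of the logarithm: not given in the sources used here, and the log2 scale of the deposited values was read from their range. Array medians lay between 3.65 and 3.87, and 47.2% to 49.0% of probe sets of an array lay at or above log2 4. No 2 arrays were identical, and their number limits the precision.

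Of the probe sets 29264 carried 1 symbol in the platform annotation, which can be old, 439 several and 13332 none. Array controls without a gene (101) were left out, and 10 that carry a gene symbol were kept, among them the GAPDH probe set. Probe sets with log2 of at least 4 in at least 4 arrays entered the tests (21493, with a single symbol for 16071). R 4.3.3, limma 3.58.1 and statmod 1.5.0 fitted 4 group means over 18 arrays (14 residual degrees of freedom, 2.54 added by moderation). Tests were two-sided with Benjamini-Hochberg adjustment over every probe set in the comparison, and the threshold was 0.05. The script was tested on simulated data.

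The model had no block for the dog. Depots are paired by the animal number in the labels. Deviations from the group means of the arrays of a dog correlated at -0.05 to 0.53 (median 0.26, 9 dogs), and those of different dogs of a feeding group at -0.42 to 0.25 (median -0.05).

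All 29 genes are accounted for. Named with full statistics were at least the genes past the threshold, or the 5 with the smallest p where under 5 passed. For the other lists those past the threshold or the 3 smallest were named. Further genes with an unadjusted p under 0.05, and PGK1, whose groups did not overlap, were given as well. PGAM1 and PDHB between depots of ad libitum dogs, also under 0.05, were not. PFKM, GAPDH and ALDOA in subcutaneous fat, and TKT and RPE between depots of control dogs, were added after their values were seen, as were the values described beside the adipocyte score. The genes and lists were chosen with earlier results of these data known. Alternatives were other filters, scalings and moderation, only the arrays of a comparison, dog blocks, an actin covariate, the mean of all probe sets of a gene and leaving out each dog. Leaving out the arrays with other tissues' transcripts was chosen after seeing the data.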

Additional observations from a re-analysis of the deposited data

Results flagged for a closer look

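In each of the 4 groups the highest and lowest array of each of the 29 genes was set against the rest of its group, and in 6 of 116 groups 1 array lay far from the others by Dixon's criterion, where chance gives about 1 in 20. PFKP was 8.77 in the gonadal array of ad libitum dog 6, which carries ciliated-cell transcripts, and 6.03 to 6.75 in the rest of that group. PGK1 was 12.74 in the subcutaneous array of ad libitum dog 2 against 11.92 to 12.11. PKM was 4.38 in the gonadal array of control dog 9 against 6.56 to 6.78. LDHA was 12.92 in the gonadal array of control dog 3 against 14.10 to 14.31. In the subcutaneous array of ad libitum dog 5, RPE was 8.75 against 9.54 to 9.82 and PYGL was 11.73 against 12.96 to 13.29.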

How the results depend on the processing

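For feeding in subcutaneous fat, where 3 genes passed, 0 passed with no filter, with only the arrays of the comparison or with the actin covariate. The same was so without the 4 arrays with transcripts of muscle or ciliated cells and without the subcutaneous arrays of dogs 3 and 4. Calls over all probe sets fell too, from 2.35% to 0.403%, 0.279%, 0.00465%, 0.0233% and 0.00931% in the order named. With quantile normalization again, with arrays centred on their median and with the mean of all probe sets of a gene 1 passed, TKT. Of all features tested 1.43%, 1.66% and 2.32% were called there. Leaving out 1 dog gave 0 to 8. Between depots of ad libitum dogs, where 3 passed, 0 passed with no filter. Only the arrays of the comparison gave 1 (HK1), as did the mean of all probe sets (GPD2). The shares of all features called were 2.63%, 4.57% and 7.68%, against 7.19% in the main fit. Quantile normalization and median centring each ended the ENO1 call, and removal of the 4 arrays ended that of HK1. Without the subcutaneous arrays of dogs 3 and 4, which are not in this comparison, only GPD2 and RPE passed. That fit thus ended both the HK1 and the ENO1 call, with 5.69% of all probe sets called. Leaving out 1 dog gave 0 to 4. Pairing the depots by a replicate block for the dog gave 6 (random block) or 4 (fixed block), and in control dogs 0 under either. The random block left subcutaneous feeding at 3, and it changed no other count of the 29 genes. Of the other pathway genes named, PRPS2 and UGP2 passed in control dogs under the random block. Gonadal feeding, control depots and the interaction gave 0 under every alternative run.

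Signs turned for genes that did not pass. PFKM for subcutaneous feeding was 0.50 without the 4 arrays and without those of dogs 3 and 4, and -0.95 to 0.11 with 1 dog left out, positive without dog 3. GAPDH was 0.30 in both of those fits and -0.20 to 0.21 with 1 dog left out, positive without dog 2 (0.07), 3 or 7 (0.04). ALDOA was -0.28 with the actin covariate. Between depots of control dogs RPE was -0.22 with the actin covariate, -0.17 in both of those fits and -0.0556 to 0.15 with 1 dog left out, negative without dog 4. TKT was -0.39 in both of those fits and -0.19 to 0.0895 with 1 dog left out, positive without dog 9. The cause was not tested. A reduced fit also holds fewer arrays, while the fit with the actin covariate holds all 18.

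With 4 or 5 dogs a group, a missed threshold does not show that a gene is alike between groups.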
